A study of Mus musculus with 8 samples.

Results

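Vitamin A (retinol) is stored in the liver and released into the blood on a carrier protein. Inside cells it is oxidised in steps, first by alcohol and retinol dehydrogenases to retinaldehyde and then by aldehyde dehydrogenases to retinoic acid, the form that binds nuclear receptors. Aldehyde oxidases, which carry a molybdenum cofactor, also oxidise aldehydes and many drugs in the liver cell.

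The genes described here are 10 of the 14317 mouse genes in the table: the alcohol dehydrogenases Adh1 and Adh4 with the pseudogene Adh6-ps1, the retinol dehydrogenases Rdh16 and Rdh9, the aldehyde dehydrogenases Aldh1a1 and Aldh1a7, the aldehyde oxidases Aox1 and Aox3, and Rbp4, which encodes the retinol carrier. They were chosen by name for their role, without P450 genes, and with earlier results of these data known. Shares of called genes among them are therefore a description and no test against all genes. All 10 were present and passed the filter on low values. RNA was sequenced from the livers of female mice, 4 in the group Con-Veh and 4 in Con-DHT, each mouse giving 1 library. Both groups ate a Western diet (WD) rich in fat, fructose and cholesterol and were control mice, whose genotype the labels give as WT. Con-DHT mice received a silastic pellet of dihydrotestosterone (DHT), an androgen that is not converted to oestrogen, of 10 mm for 8.5 weeks, and Con-Veh mice an empty pellet (Veh). The mice were 7 weeks old at implantation, pellets were renewed every 4 weeks, and the study fasted its mice overnight before tissue was taken. The comparison asks how androgen excess alters these transcripts in the female liver on a WD.

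The pairs of like genes differ in how far their reads can be told apart. The coding sequences of Aldh1a1 and Aldh1a7, taken from GENCODE M21 transcripts on GRCm38, were 91.9% identical over 1501 aligned bases, while no stretch of 150 bases (the read length) was shared between their transcripts or with any other gene's. The first 90 coding bases are shown because they let the near-copies be compared by eye, with the 5 differing bases in capitals.
Aldh1a1: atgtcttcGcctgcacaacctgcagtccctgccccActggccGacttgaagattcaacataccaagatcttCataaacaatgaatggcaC
Aldh1a7: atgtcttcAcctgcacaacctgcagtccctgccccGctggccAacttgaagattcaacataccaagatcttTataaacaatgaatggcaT

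The likeness of Aldh1a1 and Aldh1a7 extended upstream. Over 175 aligned bases of the 250 before a transcription start, the windows of Aldh1a1 (chr19:20601718-20601967, plus strand, the second of its listed starts) and Aldh1a7 (chr19:20727557-20727806, minus strand) were 91.4% identical (RefSeq, GRCm38.p6). The longest run common to both, 65 bases, is in capitals and begins 94 bases before each start.
Aldh1a1: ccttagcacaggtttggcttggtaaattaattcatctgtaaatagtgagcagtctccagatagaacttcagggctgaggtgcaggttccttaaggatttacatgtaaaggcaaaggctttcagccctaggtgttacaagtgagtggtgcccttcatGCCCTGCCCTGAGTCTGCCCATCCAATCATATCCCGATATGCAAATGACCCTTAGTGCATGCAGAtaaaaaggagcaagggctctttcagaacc
Aldh1a7: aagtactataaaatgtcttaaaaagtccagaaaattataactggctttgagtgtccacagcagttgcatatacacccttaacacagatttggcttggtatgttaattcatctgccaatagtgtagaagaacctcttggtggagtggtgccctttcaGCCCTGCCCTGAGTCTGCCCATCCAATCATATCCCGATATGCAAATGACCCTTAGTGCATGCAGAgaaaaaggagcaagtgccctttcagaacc

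Rdh9 and Rdh16 were closer still in their coding sequences, at 96.3% identity over 951 bases. Of the 150-base stretches of the Rdh9 transcript, 86.0% also occur in transcripts of Rdh16 or Rdh16f1, and 64.1% of the Rdh9 exon bases lie in exons of Rdh16f1 on the same strand. Rdh16f1 is not in the table, so the values of Rdh9 are uncertain. For Rdh16 2.62% of the stretches were shared and 6.13% of the exon bases overlap those of Rdh18-ps, and for Adh1 6.09% overlap those of the antisense gene Gm16559. The other members had neither shared stretches nor overlaps. Coding identity was 70.4% for Aox3 with Aox1 and 67.4% for Adh4 with Adh1.

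Promoter windows of 250 bases were found for 9 members (11 windows, none for Adh6-ps1). They were searched on both strands for 4 motifs. The STAT5 motif TTCNNNGAA, bound by a transcription factor downstream of growth hormone, occurred in 1 of the windows, that of Rdh16, starting 230 bases before the start, against 7.02% of all windows in the RefSeq table. In the aligned Rdh9 window the 9 bases differ by T1G, counted from the 5′ end of the Rdh16 motif. The windows of Rdh16 (chr10:127800903-127801152, plus strand) and Rdh9 (chr10:127776155-127776404, plus strand) are shown for that difference, with the motif and its aligned counterpart in capitals, and were 73.5% identical over 211 aligned bases.
Rdh16: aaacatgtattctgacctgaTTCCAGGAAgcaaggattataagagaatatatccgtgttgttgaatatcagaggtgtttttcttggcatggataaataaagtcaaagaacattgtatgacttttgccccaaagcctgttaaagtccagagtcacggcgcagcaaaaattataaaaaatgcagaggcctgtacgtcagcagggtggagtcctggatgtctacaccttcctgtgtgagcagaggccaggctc
Rdh9: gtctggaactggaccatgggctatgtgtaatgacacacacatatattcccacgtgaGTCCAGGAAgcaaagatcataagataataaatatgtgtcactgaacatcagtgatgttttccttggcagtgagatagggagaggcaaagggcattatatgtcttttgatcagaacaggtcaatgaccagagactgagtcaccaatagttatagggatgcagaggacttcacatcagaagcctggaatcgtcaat
The other motifs were the full palindromic androgen response element (present in 0.00913% of all windows), the DR5 retinoic acid response element (0.00913%) and the DR1 repeat (0.0335%), and none of the members' windows held them. A match describes these letters alone, and a missing match says that they are not in this window.

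The deposited values, called normalised read counts here, are each library's reads on a gene after division by that library's size factor. The libraries held between 13123962 and 17815944 reads on mouse genes. Groups were compared with limma on log2(value + 1) with Benjamini-Hochberg adjustment over 14312 tested genes, at an adjusted p of at most 0.05. The added 1 makes fold changes of weakly expressed genes too small. Replicates are separate mice, and means are given with the SD over 4 of them. The marker genes of hepatocytes were present at high values in every library. In bulk liver, fewer cells of a type and less RNA per cell cannot be told apart.

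At this threshold, 4 of the 10 genes differed between the groups: Aox3, Adh6-ps1 and Aldh1a7 rose in Con-DHT livers and Rdh9 fell. Over all tested genes 7.21% differed, 4.6% being higher and 2.61% lower in Con-DHT. The median log2 fold change of the 10 genes was 0.33, against -0.0081 over all tested genes. In the same 4 genes the groups did not overlap, which held for 15.1% of all tested genes (8.49% with Con-DHT above and 6.62% with Con-DHT below). With edgeR these 4 genes were called too, against 7.15% of all genes, and with DESeq2 Adh4 in addition, against 11%. Without limma's intensity trend 1 of the 10 was called, Aox3, the adjusted p of Adh6-ps1, Aldh1a7 and Rdh9 being 0.082, 0.056 and 0.085. With testing restricted to genes with a mean of at least 50, Adh6-ps1 and Rdh9 just missed the threshold (0.052 and 0.0501). Adh4 lay higher in Con-DHT by its mean but missed the threshold, and Adh1, Rdh16, Aldh1a1, Aox1 and Rbp4 did not pass the test.

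**Figure D1:**
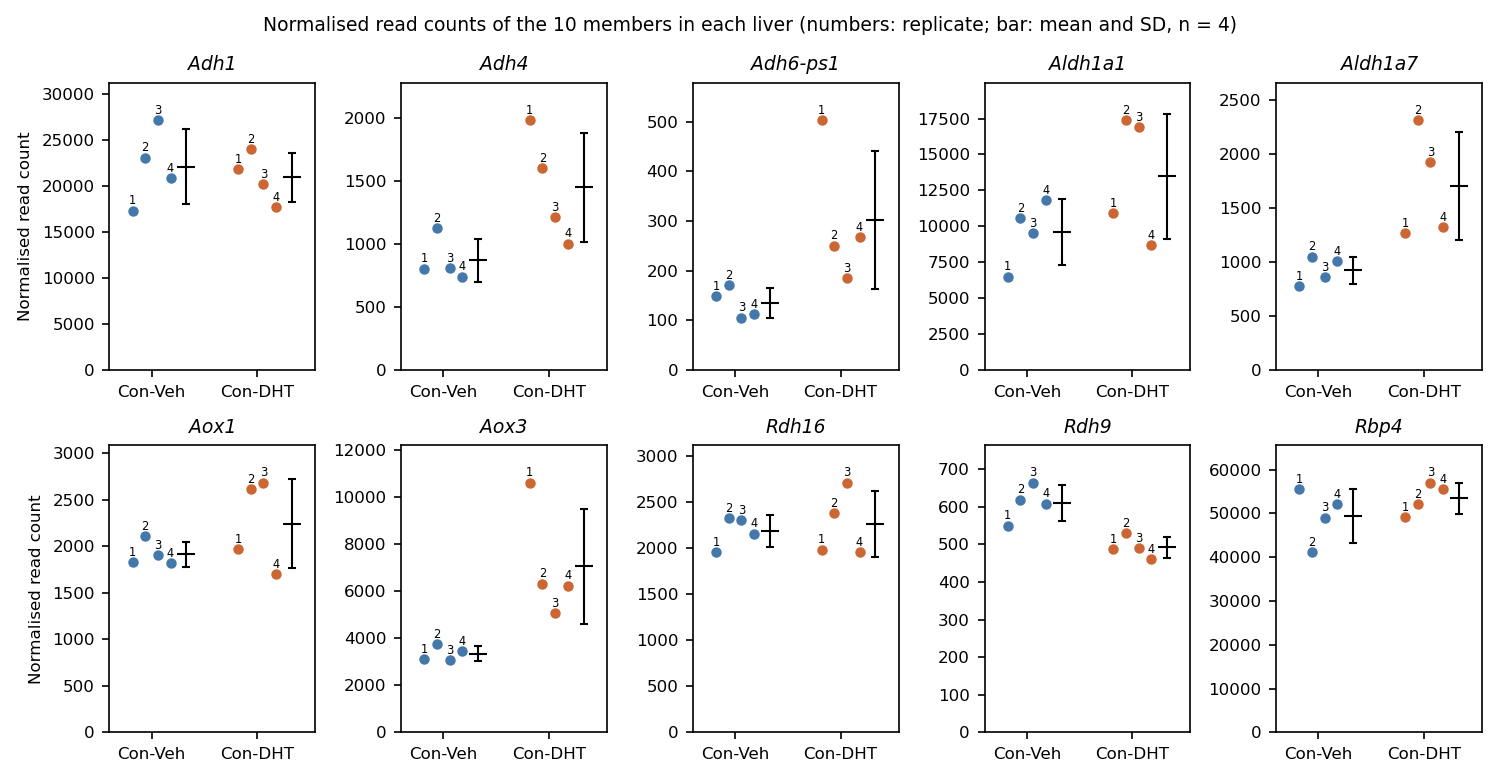
Normalised read counts of each gene (y axes, from 0) in the 4 Con-Veh and 4 Con-DHT livers, with numbered points for replicates and bars for the mean and SD. All Con-DHT points of Aox3, Adh6-ps1 and Aldh1a7 lie above the Con-Veh points, those of Rdh9 lie below, and the other genes overlap.

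Per kilobase of exon, the order of the levels in Con-Veh livers ran from Rbp4 (36851 ± 4570 normalised reads per kb) and Adh1 (9914 ± 1840) over Aldh1a1 (1947 ± 459) to a middle group of Adh4 (599.7 ± 119), Aox3 (475 ± 45.5), Aldh1a7 (447 ± 62.1), Rdh16 (352 ± 27.5), Aox1 (220.2 ± 15.5) and Rdh9 (169.9 ± 13.1). Adh6-ps1 was last at 45.3 ± 10.4. Between neighbours in this order, the libraries of Adh4 and Aox3 overlapped, as did those of Aox3 and Aldh1a7. By the mean of all libraries on this scale, Rbp4 was the 17th and Adh1 the 79th most abundant of 14282 genes with a length, and Adh6-ps1 the 5564th. In Con-DHT livers Aox3 stood at 1003 ± 346 and Adh4 at 998 ± 298 normalised reads per kb, and their libraries overlapped again. Together the 10 genes took 0.563% to 0.636% of the reads on mouse genes in Con-Veh libraries and 0.666% to 0.744% in Con-DHT libraries. These shares did not overlap, while the summed normalised read counts did (86046 to 95494 in Con-Veh, 94970 to 109480 in Con-DHT). Abundant genes that were not called weigh heavily in them. Rbp4 alone took 0.269% to 0.355% of the reads in Con-Veh and 0.346% to 0.391% in Con-DHT. Adh1 took 0.111% to 0.181% and 0.125% to 0.163%, and Aldh1a1 0.0416% to 0.0762% and 0.0608% to 0.118%.

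Rbp4 encodes the plasma carrier that takes retinol from the liver to other tissues. Its normalised read counts in replicates 1 to 4 were 55560, 41185, 49078 and 52139 in Con-Veh and 49211, 52093, 57029 and 55572 in Con-DHT. The groups overlapped, with Con-Veh 2 lowest of all. Means were 49490 ± 6137 and 53476 ± 3518 (SD, n = 4), and the log2 difference of 0.12 had a 95% interval from -0.18 to 0.42 (limma adjusted p = 0.66).

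Adh1, the class I alcohol dehydrogenase of liver, oxidises ethanol and retinol. Con-Veh livers held 17370, 23131, 27174 and 20880 normalised reads and Con-DHT livers 21892, 24021, 20259 and 17776. The groups overlapped over nearly their whole range. The log2 difference was -0.07 with a 95% interval from -0.40 to 0.27 (limma adjusted p = 0.84). Its sign turned to 0.14 with scaling by the spike-ins and to 0.03 with scaling to the total without Mup genes. These scalings shift all abundant genes nearly alike. Small negative differences turn positive by that shift alone, here and below.

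Adh4, the class II alcohol dehydrogenase, also accepts retinol. Its values were 805, 1124, 808 and 742 in Con-Veh and 1978, 1602, 1209 and 1002 in Con-DHT. In 3 of the 4 Con-DHT livers Adh4 was above every Con-Veh liver, and Con-DHT 4 lay below Con-Veh 2. The mean was 869.5 ± 173 in Con-Veh and 1448 ± 432 in Con-DHT (SD, n = 4), a log2 difference of 0.71 (SE 0.20) that missed the threshold with limma (adjusted p = 0.066) and edgeR (0.058). It passed with DESeq2 (adjusted p = 0.0083), the tool the study used, which called 11% of all genes against 7.21% by limma. With limma it also passed with spike-in scaling (0.048), with scaling to the total without Mup genes (0.037) and without Con-DHT 4 (0.029, log2 difference 0.87).

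Adh6-ps1 is annotated as a transcribed unprocessed pseudogene and has no coding sequence of its own. Con-Veh livers held 149.5, 172, 106 and 113 normalised reads and Con-DHT livers 502, 251, 186 and 267. All Con-DHT values were above all Con-Veh values, and Con-DHT 1 was far above the rest. The mean was 2.23 times as high in Con-DHT (302 ± 138 against 135 ± 31.1), with a log2 difference of 1.08 (SE 0.27, limma adjusted p = 0.042). The call was lost when any library other than Con-DHT 3 was left out, with adjusted p from 0.052 to 0.107 and log2 differences from 0.80 (without Con-DHT 1) to 1.21.

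Rdh16 encodes a microsomal retinol dehydrogenase of the short-chain dehydrogenase/reductase (SDR) family. Its values were 1959, 2332, 2306 and 2158 in Con-Veh and 1987, 2379.6, 2713 and 1959.9 in Con-DHT. The groups overlapped, and Con-DHT 3 was highest of all. The log2 difference was 0.04, with a 95% interval from -0.21 to 0.28 (limma adjusted p = 0.88). It was -0.06 without Con-DHT 3 and -0.02 without Con-Veh 1.

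Rdh9, a near copy of Rdh16, fell. Con-Veh livers held 549.7, 619, 664 and 608 normalised reads and Con-DHT livers 487, 529, 489.9 and 461. Each Con-DHT value was below each Con-Veh value, by a small margin between Con-DHT 2 and Con-Veh 1. The mean fell from 610.1 ± 47.0 to 492 ± 28.3 (SD, n = 4), a log2 difference of -0.31 (SE 0.08, limma adjusted p = 0.046). The call was lost when any library other than Con-Veh 1 was left out (adjusted p from 0.059 to 0.114) and with spike-in scaling, under which the difference was -0.10 (adjusted p = 0.95), or scaling to the total without Mup genes (-0.21, adjusted p = 0.147). Spike-in scaling moved the median log2 difference of all genes to 0.196, and relative to that median Rdh9 was at -0.30. The spike-in factors of the libraries ran from 0.675 to 1.494 within Con-Veh and from 0.839 to 1.022 within Con-DHT. This scaling therefore also changes the spread between livers of a group.

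Aldh1a1, the cytosolic retinaldehyde dehydrogenase, was the most abundant aldehyde dehydrogenase among the 10 genes. Con-Veh livers held 6513, 10573, 9540.4 and 11821 normalised reads and Con-DHT livers 10939, 17367, 16905 and 8680. Con-DHT 2 and 3 were above every Con-Veh liver, and Con-DHT 1 and 4 lay within the Con-Veh range. The log2 difference of 0.46 had a 95% interval from -0.09 to 1.01 (limma adjusted p = 0.296). It was 0.05 when Con-DHT 2 and 3 were both left out, an alternative chosen after the data were seen.

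Aldh1a7, the neighbouring near copy of Aldh1a1, rose. Its values were 775, 1050, 859 and 1008 in Con-Veh and 1269.5, 2310, 1923 and 1321 in Con-DHT. The groups did not overlap, and Con-DHT 2 and 3 were again the highest. The mean was 1.85 times as high in Con-DHT (1706 ± 500.2 against 923 ± 128), with a log2 difference of 0.85 (SE 0.19, limma adjusted p = 0.023). The call was lost without Con-DHT 3 (0.057), Con-Veh 1 (0.058) or Con-Veh 3 (0.057). Without both Con-DHT 2 and 3 the difference was 0.50 (0.077).

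Aox3, the main aldehyde oxidase of mouse liver, rose, and its call was the most stable of the 10. Con-Veh livers held 3124, 3754, 3058 and 3439.5 normalised reads and Con-DHT livers 10603, 6314, 5068 and 6228. The lowest Con-DHT liver was above the highest Con-Veh liver, and Con-DHT 1 stood highest. The mean rose from 3344 ± 320.3 to 7054 ± 2434 (SD, n = 4), 2.11 times as high, with a log2 difference of 1.02 (SE 0.19, limma adjusted p = 0.011). The call held in all 8 fits that left out a library, with log2 differences from 0.81 (without Con-DHT 1) to 1.16, and under each of the 13 other planned settings.

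Aox1, its neighbour on chromosome 1, had 1829, 2107, 1903 and 1815 normalised reads in Con-Veh livers and 1971, 2612, 2682 and 1703 in Con-DHT livers. Con-DHT 2 and 3 were above every Con-Veh liver, while Con-DHT 4 was the lowest of all 8. The log2 difference was 0.21, with a 95% interval from -0.10 to 0.51 (limma adjusted p = 0.42). Without both Con-DHT 2 and 3 it was -0.06.

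**Figure D2:**
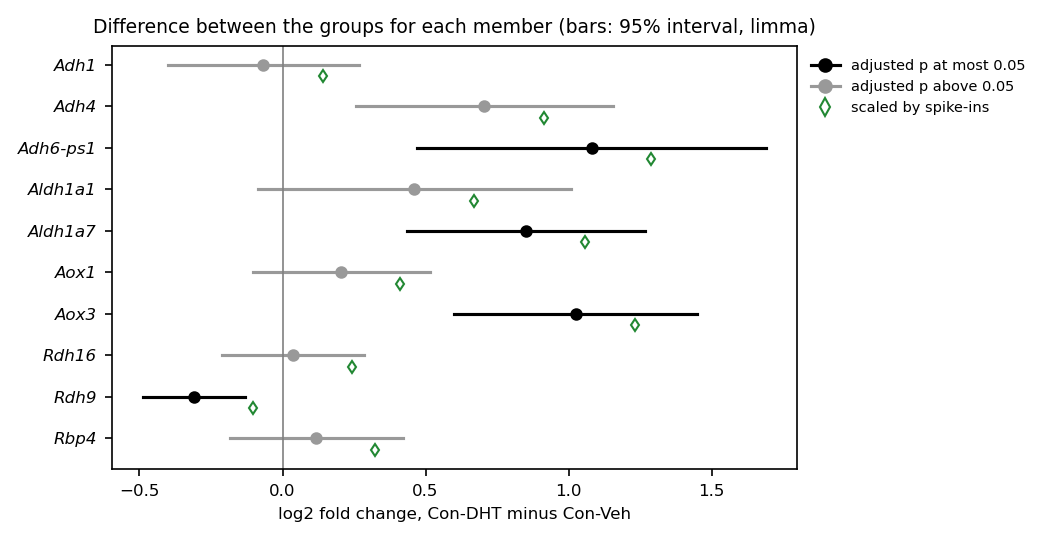
Log2 fold change of each gene (x axis, Con-DHT minus Con-Veh; points, with 95% intervals from limma as bars), in black where the adjusted p was at most 0.05, and the same value with scaling by the spike-ins (open diamonds). Spike-in scaling moved each value to the right, Rdh9 to -0.10 and Adh1 across 0 to 0.14.

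The libraries that were highest differed between genes. Within the Con-DHT group, Con-DHT 1 was highest in 3 of the 10 genes (Adh4, Adh6-ps1 and Aox3), Con-DHT 2 in 4 (Adh1, Aldh1a1, Aldh1a7 and Rdh9) and Con-DHT 3 in 3 (Aox1, Rdh16 and Rbp4). Con-DHT 4 was lowest in 6. Within Con-Veh, Con-Veh 2 was highest in 6 genes and Con-Veh 1 lowest in 5. The coefficient of variation was 45.9% for Adh6-ps1, 34.5% for Aox3 and 5.75% for Rdh9 in Con-DHT livers, and 23.0%, 9.58% and 7.70% in Con-Veh livers.

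Ratios of like genes within a library do not depend on how libraries were scaled, and are given without a test. The ratio of Aldh1a1 to Aldh1a7 was 8.40, 10.1, 11.1 and 11.7 in Con-Veh and 8.62, 7.52, 8.79 and 6.57 in Con-DHT, so that Con-Veh 1 lay within the Con-DHT range. The ratio of Aox3 to Aox1 was between 1.61 and 1.90 in Con-Veh and was 5.38, 2.42, 1.89 and 3.66 in Con-DHT, overlapping through Con-DHT 3. The ratio of Adh4 to Adh1 was higher in each Con-DHT liver (0.0564 to 0.0903) than in any Con-Veh liver (0.0297 to 0.0486). The ratio of Rdh9 to Rdh16 was lower in each Con-DHT liver (0.181 to 0.245) than in any Con-Veh liver (0.265 to 0.288), within the uncertainty of assigning Rdh9 reads.

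**Figure D3:**
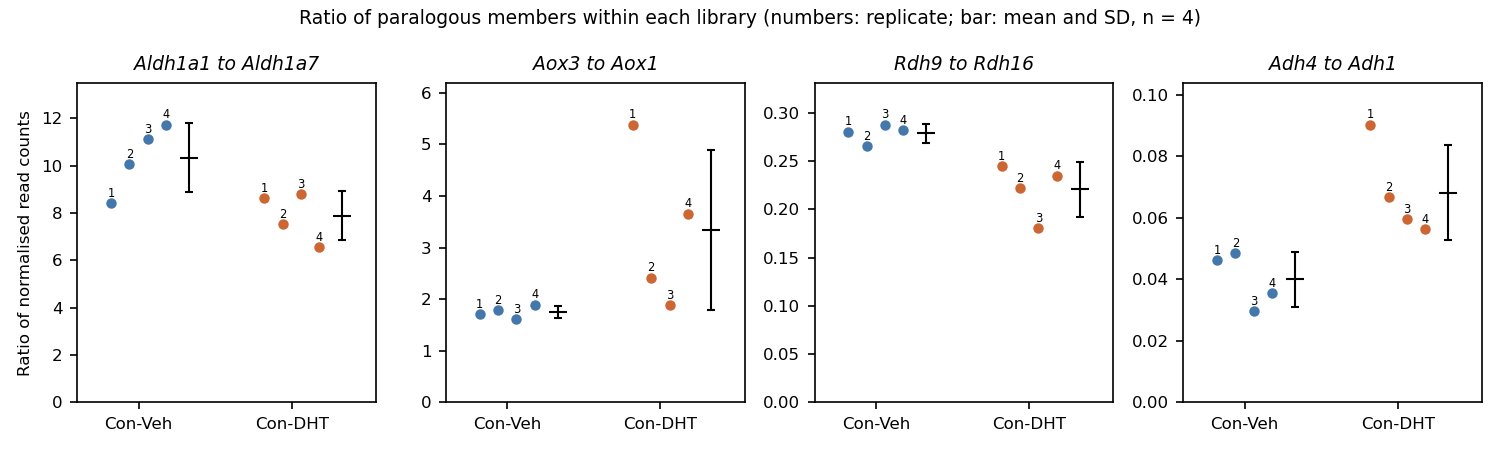
Ratio of the normalised read counts of paralogous genes in each liver (y axes, from 0), with numbered points for replicates and bars for the mean and SD of 4 mice. The groups are separate for Rdh9 to Rdh16 and Adh4 to Adh1, and overlap for Aldh1a1 to Aldh1a7 and Aox3 to Aox1.

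The genes lie in 4 chromosomal neighbourhoods of like genes with some other genes between them (gene order from RefSeq, GRCm38.p6). Rbp4 lies apart on chromosome 19. Over all tested genes 4.6% rose and 2.61% fell, and with so few genes in a neighbourhood the counts are given as a description. In the alcohol dehydrogenase cluster on chromosome 3, 1 of 7 tested genes rose, Adh6-ps1, which is followed by Adh4. The 7 include the noncoding RNA genes 0610031O16Rik and Gm16559. Adh5 at the end of the cluster had a log2 difference of 0.02 (SE 0.07). In the Aox cluster on chromosome 1, 1 of 2 tested genes rose. In the Rdh cluster on chromosome 10, 3 of 7 tested genes fell, Rdh9, Rdh16f2 and Hsd17b6, and none rose. Between Rdh9 and Rdh16f2 lie the tested genes Rdh16 (0.04) and Rdh18-ps (0.39, adjusted p = 0.52 by limma), which did not pass. Rdh18-ps is named for its place, and the untested Rdh19 lies there as well. Of the Aldh1a pair on chromosome 19, Aldh1a7 passed and Aldh1a1 did not.

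The wider pathway was read from 6 lists, also drawn up with earlier results of these data known. They held 73 tested genes of 95 named, the 10 genes among them. Of the other 63 tested genes, 3 rose and 6 fell in Con-DHT, 14.3% against 7.21% of all tested genes, and their median log2 difference was -0.11. Among 6 tested alcohol dehydrogenases only Adh6-ps1 was called. Adh5, which oxidises glutathione-bound formaldehyde, had values between 3761 and 4310 in Con-Veh and between 3936 and 4151 in Con-DHT (adjusted p = 0.89 by limma).

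Retinol dehydrogenases and related SDR enzymes were called in 4 of 20 tested genes, all lower, where 2.61% of all tested genes were called lower. Rdh16f2, a close relative of Rdh16, held 3863, 3080, 3233 and 3884 normalised reads in Con-Veh and 1274, 1325, 1683 and 1129 in Con-DHT. The groups did not overlap, and its log2 difference of -1.38 (SE 0.13, limma adjusted p = 0.00031) was called under every setting run. Hsd17b6, which oxidises androstanediol back to DHT and also acts on retinol, held 4409, 4900, 6894 and 8077 in Con-Veh and 3610, 3173, 2281 and 2224 in Con-DHT. These groups were separate as well, at a log2 difference of -1.09 (SE 0.21, limma adjusted p = 0.014), whose adjusted p rose above 0.05 with spike-in scaling (0.066, log2 difference -0.89) and without both Con-DHT 2 and 3 (0.074). Dhrs7, another SDR enzyme, fell from values of 627 to 1091 to values of 334 to 496, a log2 difference of -0.89 (limma adjusted p = 0.017, 0.286 with spike-in scaling at a difference of -0.68, and 0.053 without both Con-DHT 2 and 3). The abundant Rdh7 and Hsd17b11 did not pass, at log2 differences of -0.12 and -0.02. Their signs turned by the shift that spike-in scaling gives all abundant genes.

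Aldehyde dehydrogenases were called in 4 of 18 tested genes, 3 higher and 1 lower, where 4.6% and 2.61% of all tested genes were. Aldh1a3, a retinaldehyde dehydrogenase with low values in liver, held 57.2, 37.6, 33.9 and 51.3 normalised reads in Con-Veh and 91.2, 92.9, 66.3 and 83.7 in Con-DHT. The groups did not overlap, and the log2 difference was 0.90 (SE 0.20, limma adjusted p = 0.025). Aldh3a2, the fatty aldehyde dehydrogenase, rose from values of 8539 to 12828 to values of 14389 to 16625, a log2 difference of 0.54 (limma adjusted p = 0.030). With spike-in scaling its difference was 0.75 and the adjusted p 0.229. Without the intensity trend the adjusted p of Aldh3a2 was 0.056. The call of Aldh1a3 was lost without Con-DHT 1, 2 or 4 or Con-Veh 2 or 3 (0.054 to 0.072), and that of Aldh3a2 without Con-DHT 1, 2 or 4 or Con-Veh 2 or 4 (0.051 to 0.081). Aldh3b3 held 59.4, 58.9, 59.9 and 68.8 in Con-Veh and 1.96, 0.968, 6.12 and 3.26 in Con-DHT, where single reads are worth close to 1. It was near its detection limit in each Con-DHT liver, with a log2 difference of -4.10 (SE 0.38, limma adjusted p = 0.00031). Aldh2, the mitochondrial enzyme that clears acetaldehyde, had a log2 difference of -0.12 (adjusted p = 0.61 by limma), which turned to 0.09 with spike-in scaling and 0.02 with quantile normalisation.

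Among 8 tested aldehyde and xanthine oxidases and molybdenum cofactor genes, Aox3 alone was called, where 7.21% of all tested genes were. Xdh, the xanthine oxidoreductase, had a log2 difference of -0.27 (SE 0.18, limma adjusted p = 0.41). Mocs1, which acts in the synthesis of the molybdenum cofactor that Aox3 needs, had one of -0.11 (SE 0.08, adjusted p = 0.47), turning to 0.10 with spike-in scaling.

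Retinoid carriers, uptake and ester storage had 3 called genes of 13 tested, where 7.21% of all tested genes were called. Lipe, the hormone-sensitive lipase, which also cleaves retinyl esters, held 413, 465, 447 and 371 normalised reads in Con-Veh and 582, 622, 648 and 687 in Con-DHT. The groups were separate, with a log2 difference of 0.58 (SE 0.09, limma adjusted p = 0.0046). With spike-in scaling the difference was 0.79 and the adjusted p 0.138. Lipe is also strongly expressed in adipocytes, whose 8 markers had a median log2 difference of 0.64. None of the 8 was called in the main test, while Adrb3, Cfd and Pparg were called under other settings. Their summed values were 1216 to 1651 in Con-Veh and 1519 to 4523 in Con-DHT, for all 8 markers. The part of adipocytes in the value of Lipe was not tested. Stra6l, a liver receptor for the retinol carrier, fell from values of 1907 to 2937 to values of 1486 to 1834 (log2 difference -0.57, limma adjusted p = 0.030), and Bco2, which cleaves carotenoids, fell from values of 186 to 280.2 to values of 134 to 180.4 (log2 difference -0.56, adjusted p = 0.044). Stra6l lost its call without any library but Con-DHT 4 or Con-Veh 3 (0.057 to 0.083), Bco2 without any but Con-Veh 1 (0.055 to 0.116), and both with spike-in scaling (0.85 and 0.86, each at a log2 difference of -0.36) and without the intensity trend (0.067 and 0.071). Bco2 was called under 8 of the 13 other planned settings, and just missed the threshold with a mean of at least 50 (0.0502). Ttr, which binds the retinol carrier in plasma, had a log2 difference of -0.10 (adjusted p = 0.75 by limma), turning to 0.11 with spike-in scaling.

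None of 8 tested genes for retinoic acid receptors and catabolism was called. With 7.21% of all tested genes called, none in so short a list is close to that share. Rxra, the most abundant receptor of the list, held between 9250 and 10199 normalised reads in Con-Veh and between 8793 and 10242 in Con-DHT. Its log2 difference was -0.01 and that of Rxrb 0.04 (adjusted p = 0.94 and 0.78 by limma). The retinoic acid hydroxylases Cyp26a1 and Cyp26b1 stood at -0.21 and 0.46 (adjusted p = 0.82 and 0.46 by limma), named here after their values were seen.

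**Figure D4:**
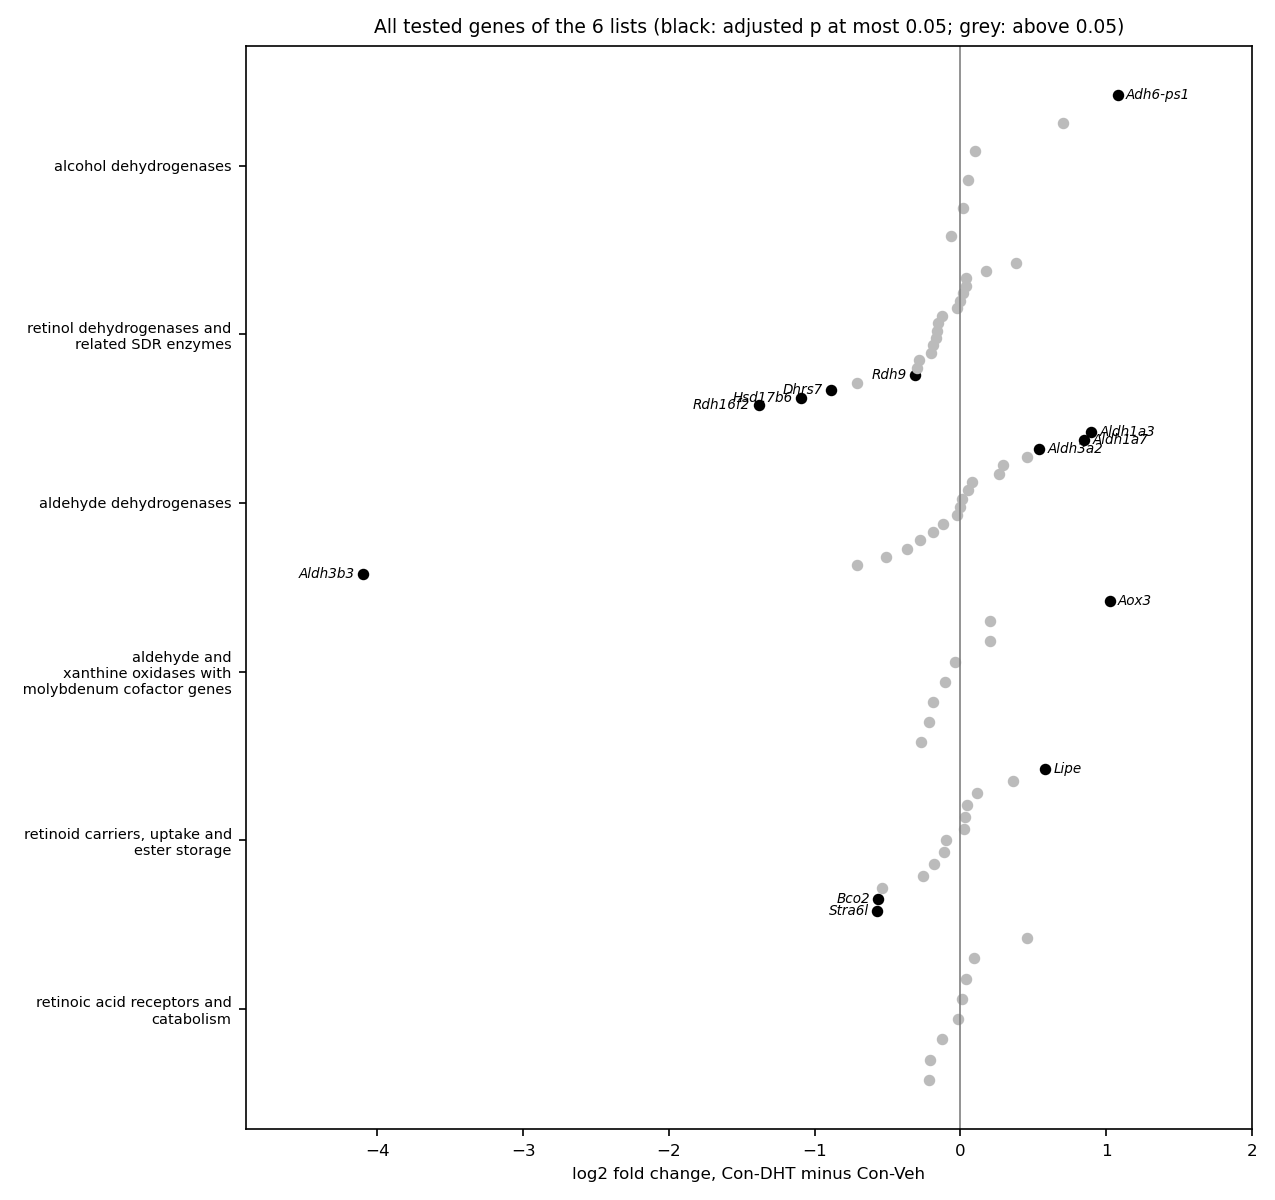
Log2 fold change (x axis, Con-DHT minus Con-Veh) of the 73 tested genes of the 6 lists (y axis, sorted by value within a list), black and named where the adjusted p was at most 0.05. The SDR list has its 4 black points below 0, and the list of receptors and catabolism has none.

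Some markers of liver cell types were called too, where 2.61% of all tested genes were called lower. Of 8 macrophage markers, 4 were called lower in Con-DHT (Clec4f, Vsig4, Cd5l and C1qa), with summed values of 7307 to 8997 in Con-Veh and 4917 to 6709 in Con-DHT. Of 8 sinusoidal endothelial markers, Stab2 and Lyve1 were called lower. The sums over all 8 were 4075 to 4656 in Con-Veh and 3224 to 3832 in Con-DHT. Log2 differences of the other 6 ran from -0.40 (Oit3) to 0.006 (Dnase1l3), with Kdr at 0.0003. Of 8 hepatocyte markers, Serpinc1 was called lower, and the sums overlapped. With spike-in scaling Lyve1 alone of the 7 called genes kept its call (adjusted p = 0.025 by limma). The others had adjusted p from 0.32 (Cd5l) to 0.92 (Serpinc1). In the fits that left out a library, Vsig4, Cd5l and C1qa were called in 8 of 8, Stab2 in 6, Clec4f and Lyve1 in 2 and Serpinc1 in 1. No marker of stellate cells (8 tested), cholangiocytes (7) or adipocytes (8) was called in the main test. Of the adipocyte markers, Adrb3 was called under 2 of the 13 other planned settings (adjusted p = 0.042 with DESeq2). Cfd was called under 1 (0.021 by limma with spike-in scaling), and so was Pparg (0.040). Con-Veh 3 had the highest stellate sum, 6811 in a Con-Veh range starting at 2294. Adipocyte sums reached 4523 in Con-DHT against 1651 in Con-Veh. No tested marker was at 0 in any library. The part of these cells in the values of the 10 genes was not tested.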

How the data were processed

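Reads from 8 liver libraries (4 Con-Veh, 4 Con-DHT; NEBNext Ultra II RNA kit, with ERCC spike-in RNA) were trimmed with Trimmomatic, aligned with STAR and counted in exons with featureCounts by the authors, to GRCm39 per the labels. The values the authors deposited are a normalised signal, read counts divided by a DESeq2 size factor per library. Dividing by the value of 1 read gave whole reads for 100% of values within 0.01, used for edgeR 4.0.16 (1024 genes called) and DESeq2 1.42.0 (1569) as alternatives. Strand use in counting is not given in the sources used here. The table holds 14371 features, 54 of them spike-ins.

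The main test was limma 3.58.1 (eBayes with trend) in R 4.3.3 on log2(value + 1). Mouse genes whose mean value was 10 or more were tested (14312). The threshold of 0.05 applied to p-values adjusted over all of them. As a check for duplicated libraries, the 12 same-group pairs were compared, and none agreed within counting noise. The tests were tried on simulated counts. Symbols, lengths and gene order came from GENCODE M21 and RefSeq (GRCm38.p6), whose gene coordinates were not used for the values. The members and lists were chosen with earlier results of these data known. Named were the 10 genes, every called gene of the 6 lists and the 2 highest uncalled genes of each list. The alternatives were a pseudocount of 0.1 or 5, omitting the filter or raising it to 50, 4 other scalings, limma without the trend or with array weights, edgeR, DESeq2, blocking on replicate number and leaving out each library. Chosen after seeing the data was leaving out Con-DHT 2 and 3 together. A detail of the mouse line shared by both groups is not reported here.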

Additional observations from a re-analysis of the deposited data

Results flagged for a closer look

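In 64 sets of 4 values (each of 28 named genes and each of the 4 ratios of like genes, per group) the gap of the extreme library to its nearest neighbour was divided by the range and compared with Dixon's critical value, which chance passes in about 1 of 20 sets, and 3 sets passed. Adh5 was lowest in Con-DHT 1 at 3936.1 normalised reads, against 4131 to 4151 in the other Con-DHT livers. Aldh3b3 was highest in Con-Veh 4 at 68.756, against 58.9 to 59.9. Rxrb was lowest in Con-Veh 4 at 747.61, against 838 to 842. None of the 10 genes described in the report had such a library.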

How the results depend on the processing

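Aox3 kept its direction and its call under every alternative run. The number of the 10 genes called was 4, and was 1 without the intensity trend (Aox3), 2 with a mean of at least 50, 2 without both Con-DHT 2 and 3, and 1 to 3 with a library left out. The number of pathway genes called was 13, and was 7 without the trend, 7 with spike-in scaling, 8 without both Con-DHT 2 and 3, and 7 to 10 with a library left out. Over all genes 1032 were called (658 higher, 374 lower), and 1569 by DESeq2, 648 with a mean of at least 50, 644 with spike-in scaling (570 higher, 74 lower), 584 without both Con-DHT 2 and 3, and 633 (without Con-Veh 4) to 905 with a library left out. Scaling to the total without Mup genes called 1082 higher and 208 lower. These scalings moved the median log2 difference of all genes to 0.196 and 0.0897. The spike-in factors ran from 0.675 to 1.494 within Con-Veh and from 0.839 to 1.022 within Con-DHT. Under spike-in scaling Aldh3a2 and Lipe lost their calls though their log2 differences grew. The causes of these changes were not tested. With another pseudocount or a library left out, the group difference of each of the 4 log2 ratios moved by less than its pooled SD between livers. Same-numbered livers did not deviate together (correlations -0.186, -0.006, -0.022 and -0.076). With 4 libraries in a group this cannot exclude that same-numbered livers shared something. With the replicate number as a block 4 of the 10 genes, 11 pathway genes and 700 of all genes were called, Adh4 being called (limma adjusted p = 0.039) and Rdh9 (0.080), Hsd17b6 (0.056) and Aldh3a2 (0.078) not. Single reads are worth 0.870 to 1.10 units of value, so depth limits the values of Aldh3b3 in Con-DHT.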
